A study of Mus musculus with 6 samples.

Results

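The family of miR-15, miR-16, miR-195 and miR-497 is a group of mature miRNAs that carry the same seed, bases 2 to 8, with which a miRNA pairs to its target mRNAs. The 7 members, chosen with earlier results of these data known, were taken from the deposited count tables by name alone. They are the guide strands miR-15a-5p, miR-15b-5p, miR-16-5p, miR-195a-5p and miR-497a-5p, and the passenger arms miR-15b-3p and miR-195a-3p. All 7 were found among the 1906 miRNAs of each table. Small RNA was sequenced from primary oligodendrocytes of C57BL/6N mice (3 libraries, called Cells) and from the extracellular vesicles (EVs) these cultures released (3 libraries). The cultures came from embryonic day 14, were grown with 1% horse serum, washed, and kept for 24 h in serum-free Sato medium with the supplement B27. Vesicles were taken at days 5 to 6 in vitro and cells at day 6. The vesicle fraction is what pelleted in the last of a series of centrifuge spins, so it can also hold particles that are not vesicles. No library of medium alone is among the samples, and a mouse miRNA from the cells and an identical miRNA from serum or B27 cannot be told apart.

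A miRNA hairpin is cut into a 5p and a 3p arm, and one of them, the guide, is usually kept in the Argonaute protein while the other, the passenger, is mostly degraded. Members of this family are best known for holding back the cell cycle through cyclins and cyclin-dependent kinases, and for lowering the survival factor BCL2. miR-15a and miR-16 lie in a region that is often deleted in chronic lymphocytic leukaemia, and miR-16 is abundant in most cell types and in red blood cells. miR-195 and miR-497 are known from postnatal heart and from skeletal muscle, where they accompany exit from the cell cycle.

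The sequences below show how the guide strands resemble each other. They were copied from RefSeq's miRNA table (mouse build GRCm38.p6), where all 7 members were matched by name, and are written 5′ to 3′ with the seed in capitals.
miR-15a-5p: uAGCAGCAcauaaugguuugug
miR-15b-5p: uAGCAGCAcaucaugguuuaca
miR-16-5p: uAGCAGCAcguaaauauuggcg
miR-195a-5p: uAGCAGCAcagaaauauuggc
miR-497a-5p: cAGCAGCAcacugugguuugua
The 5 guides share an unbroken run from base 2 to base 9, and 10 of the 21 positions that all of them have are the same in all. Compared from the 5′ end without gaps, miR-16-5p and miR-195a-5p had the same base at 19 of 21 positions, and miR-15a-5p and miR-15b-5p at 18 of 22. miR-16-5p and miR-497a-5p were least alike, with 11 of 22. The seed is found in 10 of the 1679 mature mouse miRNAs that RefSeq lists (0.596%). Besides the 5 guides these are miR-322-5p, and miR-195b, miR-6342, miR-6353 and miR-6419, each of which had 0 reads in all 6 libraries.

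The guides come from 3 genomic clusters, located here on GRCm38.p6 although the reads were counted on mm9, so no position below belongs to the count files. miR-15a-5p (chr14:61632075-61632096, minus strand) and the first copy of miR-16-5p (chr14:61631936-61631957, minus strand) lie 117 bases apart, in an intron of the long non-coding RNA gene Dleu2 in the GENCODE annotation. miR-15b-5p (chr3:69009775-69009796, plus strand) and the second copy of miR-16-5p (chr3:69009918-69009939, plus strand) lie 121 bases apart, in an intron of Smc4, which encodes a condensin subunit. miR-497a-5p (chr11:70234730-70234751, plus strand) and miR-195a-5p (chr11:70235062-70235082, plus strand) lie 310 bases apart, and the annotation gave no host gene there. Both copies of the miR-16 gene give the same guide strand, so its reads cannot be assigned to a cluster. The passenger arms of the copies differ, and they are shown because they are what tells the copies apart.
miR-16-1-3p: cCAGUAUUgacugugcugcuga
miR-16-2-3p: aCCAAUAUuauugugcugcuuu
The remaining 2 members are passenger arms with other seeds.
miR-15b-3p: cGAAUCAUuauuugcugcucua
miR-195a-3p: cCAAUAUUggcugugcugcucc

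The libraries held 313766 to 689475 reads in EVs and 126910 to 202358 reads in Cells. Levels are given in CPM, the usual scaling of counts to a common library total, and a read was worth 1.45 to 3.19 CPM in the EV libraries and 4.94 to 7.88 CPM in the cell libraries. The oligodendrocyte miRNAs fixed as markers (miR-219a-2-3p, miR-219a-5p, miR-338-3p, miR-338-5p and miR-138-5p) summed to 33961 to 43435 CPM in the cell libraries and 33557 to 36111 CPM in the EV libraries, and none of them was at 0. They did not move together: 2 of 5 were called higher in EVs (miR-219a-5p at a log2 fold change of 0.81 and miR-138-5p at 0.73) and 3 lower (miR-338-5p at -2.06, miR-219a-2-3p at -1.37 and miR-338-3p at -0.80). The vesicle comparison used edgeR's quasi-likelihood test on counts with TMM scaling, and p-values were adjusted by Benjamini-Hochberg over the 336 miRNAs tested. A miRNA is called here at an adjusted p below 0.05. In all, 28.6% of the 336 were called higher in EVs and 28.9% lower. Of the 6 members that passed the filter on low counts, 2 were called higher and 0 lower, with a median log2 fold change of 0.42 against 0.06 over all tested miRNAs. These counts are close to the background, and the results below are those of single members and of their proportions.

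miR-497a-5p was far more abundant in the vesicle fraction than in the cells, miR-15a-5p was moderately higher, and miR-16-5p, the most abundant member, overlapped between the groups. Its share of the guide reads was smaller in all 3 EV libraries than in any cell library. miR-195a-5p, encoded beside miR-497a-5p, overlapped between the groups and was not called.

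miR-16-5p ranked between 23 and 34 among all miRNAs in every library. It stood at 9413, 7104 and 7497 CPM in EVs replicates 1 to 3 and at 4699, 10456 and 8361 CPM in Cells replicates 1 to 3. The groups overlapped, since Cells replicate 1 was the lowest of the 6 libraries and Cells replicate 2 the highest. The means were 8005 ± 1235 CPM (EVs) and 7839 ± 2914 CPM (Cells) (SD, n = 3 each). The log2 fold change was -0.41 (SE 0.24, edgeR BH-adjusted p = 0.166), with a 95% interval of -0.94 to 0.12. Without Cells replicate 1 it was -0.64 and called lower (edgeR BH-adjusted p = 0.0138), and with scaling by library size alone it was 0.03 (adjusted p = 0.919).

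miR-15a-5p, the neighbour of miR-16-1, stood at 1019, 959 and 798 CPM in EVs replicates 1 to 3. In Cells the values were 307, 402 and 504 CPM. The groups did not overlap, and all EV values were the higher ones. The log2 fold change was 0.74 (SE 0.23, edgeR BH-adjusted p = 0.0205), a 1.67-fold difference, with a 95% interval of 0.23 to 1.25. The call rests on several libraries: it was lost on leaving out EVs replicate 1 (0.64, adjusted p = 0.102), EVs replicate 2 (0.56, 0.107) or the second cell library (0.69, 0.0606). It was also lost with upper-quartile scaling (0.60, 0.0524).

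miR-15b-5p, the neighbour of miR-16-2, stood at 1329, 899 and 1147 CPM in EVs replicates 1 to 3 and at 410, 701 and 707 CPM in Cells. The groups did not overlap on this scale. The log2 fold change was 0.44 (SE 0.23, edgeR BH-adjusted p = 0.125, 95% interval -0.07 to 0.95) and was not called. With library size alone it was 0.89 and called (edgeR BH-adjusted p = 0.015). Its passenger arm miR-15b-3p stood at 260, 166 and 302 CPM in EVs and at 147, 142 and 109 CPM in Cells, again without overlap. The arm's log2 fold change was 0.41 (SE 0.28, edgeR BH-adjusted p = 0.243), or 0.90 and called with library size alone (adjusted p = 0.0245).

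miR-497a-5p stood at 436, 519 and 334 CPM in EVs replicates 1 to 3 and at 57.6, 63.0 and 74.1 CPM in Cells. The lowest EV library was thus more than 4 times the highest cell library. The log2 fold change was 2.25 (SE 0.31, edgeR BH-adjusted p = 0.000336), a 4.76-fold difference with a 95% interval of 1.57 to 2.94 on the log2 scale. It was the 11th largest of the 336 log2 fold changes. The cell values rested on 9, 8 and 15 reads. With reads pooled over the libraries of a group, its share of all reads was 6.15 times as high in EVs (95% exact binomial interval 4.30 to 9.07, counting error only).

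miR-195a-5p, the neighbour of miR-497a-5p, stood at 378, 287 and 363 CPM in EVs replicates 1 to 3 and at 102, 362 and 272 CPM in Cells. The groups overlapped, and Cells replicate 1 was the lowest library. The log2 fold change was 0.05 (SE 0.32, edgeR BH-adjusted p = 0.915), with a 95% interval of -0.67 to 0.77. Its direction turned with DESeq2, upper-quartile scaling and thinning, and on leaving out EVs replicate 1, EVs replicate 3 or Cells replicate 1 (-0.28 for the last), and it was called in no alternative run. Its passenger arm miR-195a-3p was too rare to be tested, with 12, 10 and 18 reads in EVs and 1, 1 and 4 reads in Cells. In pooled reads that share was 2.26 times as high in EVs, with a 95% exact binomial interval of 0.951 to 6.51 that includes no difference.

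**Figure D1:**
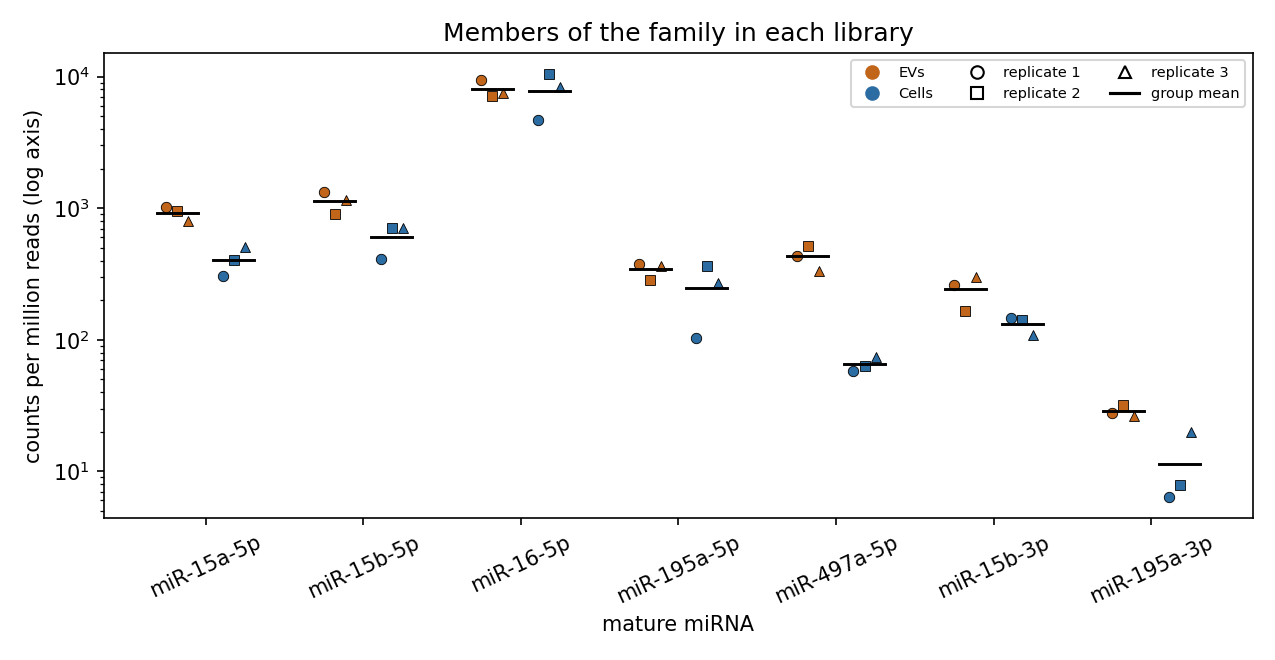
CPM (log axis) of the 7 members in each library, EVs in orange and Cells in blue, with a bar at the mean of each group and a symbol for each replicate number. miR-497a-5p stands apart, at 334 to 519 CPM in the EV libraries against 57.6 to 74.1 CPM in the cell libraries, while the groups overlap for miR-16-5p and miR-195a-5p.

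In CPM, 4 of the 6 tested members did not overlap between the groups and were higher in EVs, as were 47.3% of all tested miRNAs. The order of the members changed between the groups. In EVs it ran from miR-16-5p through miR-15b-5p, miR-15a-5p, miR-497a-5p, miR-195a-5p and miR-15b-3p to miR-195a-3p. In Cells miR-497a-5p, the fourth in EVs, came after miR-15b-3p. Among neighbours in this order the ranges overlapped in EVs for miR-15b-5p and miR-15a-5p, for miR-497a-5p and miR-195a-5p, and for miR-195a-5p and miR-15b-3p. In Cells they overlapped for miR-15b-5p and miR-15a-5p, for miR-15a-5p and miR-195a-5p, and for miR-195a-5p and miR-15b-3p. CPM here is per mature miRNA, and the members are 21 or 22 bases long.

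The scaling matters for the members with small changes. Library size alone put the median log2 fold change over the 336 miRNAs at 0.54, where TMM gave 0.06, and 71.2% of calls were then on the higher side, where TMM gave 49.7%. With that scaling 4 of 6 tested members were called higher, against 44.0% of all tested miRNAs. Relative to the median of all tested miRNAs the members hardly moved. This follows from the change of scaling, which shifts all log2 fold changes by nearly the same amount, and is no separate support. On that relative log2 scale miR-497a-5p lay at 2.19 with TMM and 2.16 with library size alone, miR-15a-5p at 0.68 and 0.65, and miR-15b-5p at 0.38 and 0.36. miR-195a-5p lay at -0.01 and -0.04, and miR-16-5p at -0.47 and -0.51.

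**Figure D2:**
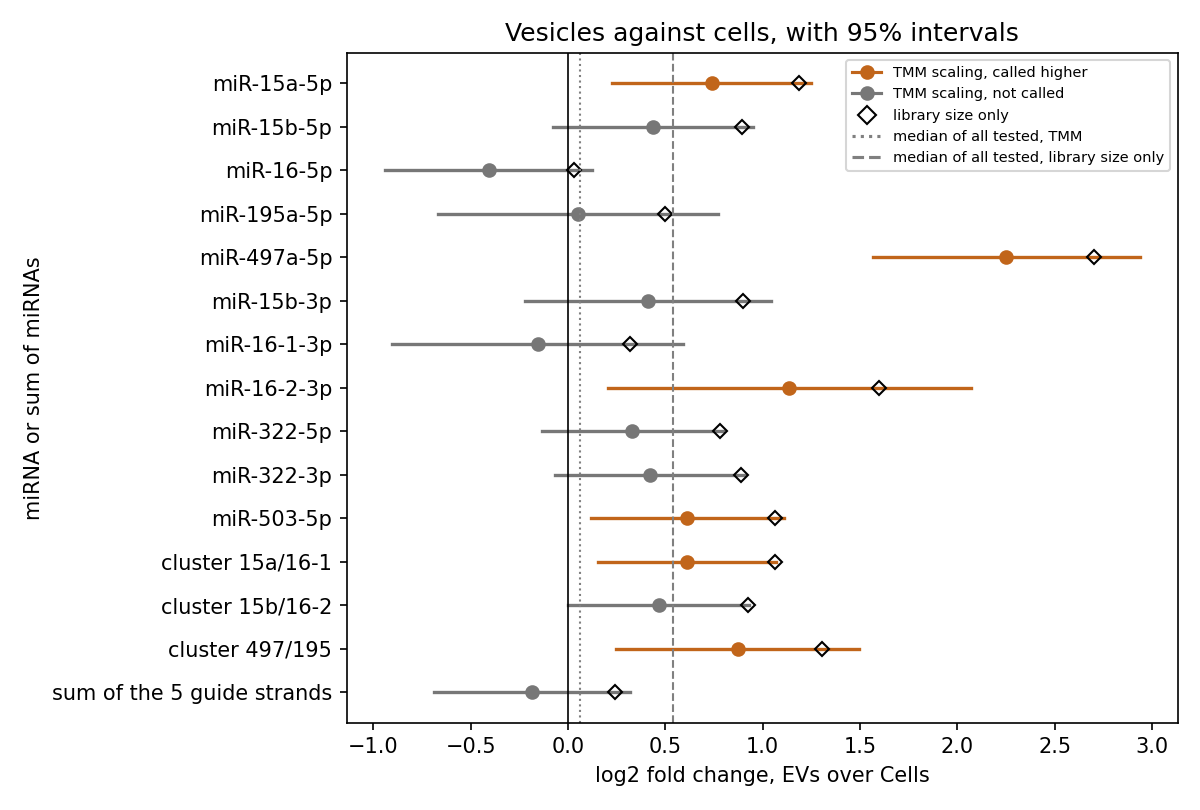
Log2 fold change of EVs over Cells for the tested members, the other tested entries of the family, the cluster sums and the sum of the guides. Circles and bars give edgeR estimates with TMM scaling and 95% intervals (orange where called higher), and open diamonds give the estimate with library size alone. The value of miR-497a-5p, 2.25, is the largest shown, and the intervals of miR-16-5p and miR-195a-5p include 0.

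The proportions within the family do not depend on scaling between libraries. The 5 guides together made up 1.26%, 0.977% and 1.01% of all reads in EVs replicates 1 to 3 and 0.558%, 1.20% and 0.992% in Cells, so their sum overlapped between the groups. The widest 95% Wilson interval of these shares was 1.14% to 1.26%, for Cells replicate 2. Tested as a single sum, the guides gave a log2 value of -0.18 for EVs over Cells (SE 0.23, edgeR BH-adjusted p = 0.522, 95% interval -0.69 to 0.32). The direction of this sum turned with library size alone, at 0.24 (adjusted p = 0.42).

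Of the guide reads, miR-16-5p made up 74.9%, 72.7% and 73.9% in EVs and 84.3%, 87.2% and 84.3% in Cells. All EV libraries lay below all cell libraries, by 11.4 percentage points on average, and this mean difference was between 10.4 and 11.9 points without any single library. miR-497a-5p made up 3.47%, 5.32% and 3.29% in EVs and 1.03%, 0.526% and 0.747% in Cells. miR-15a-5p held 8.60% ± 1.07 in EVs and 4.65% ± 1.14 in Cells, and miR-15b-5p 10.4% ± 1.07 and 6.77% ± 0.807 (SD, n = 3 each), both without overlap. miR-195a-5p held 3.17% ± 0.351 and 2.53% ± 0.620, with overlap. The exact permutation p, two-sided, was 0.1 for each guide but miR-195a-5p (0.3), or 0.125 and 0.3 after adjustment over the 5. With 3 libraries against 3 this test cannot go below 0.1. Over the 3 pairs of same-numbered libraries an exact sign-flip test, which cannot go below 0.25, gave 0.25 for these 4 guides, each with all 3 pairs in 1 direction, and 0.5 for miR-195a-5p. Shares of a whole are tied to each other, so a lower share of miR-16-5p raises the other shares together. The widest 95% Wilson interval for miR-16-5p was 81.7% to 86.5% (Cells replicate 1), and that for miR-497a-5p 4.58% to 6.17% (EVs replicate 2), for counting error only.

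**Figure D3:**
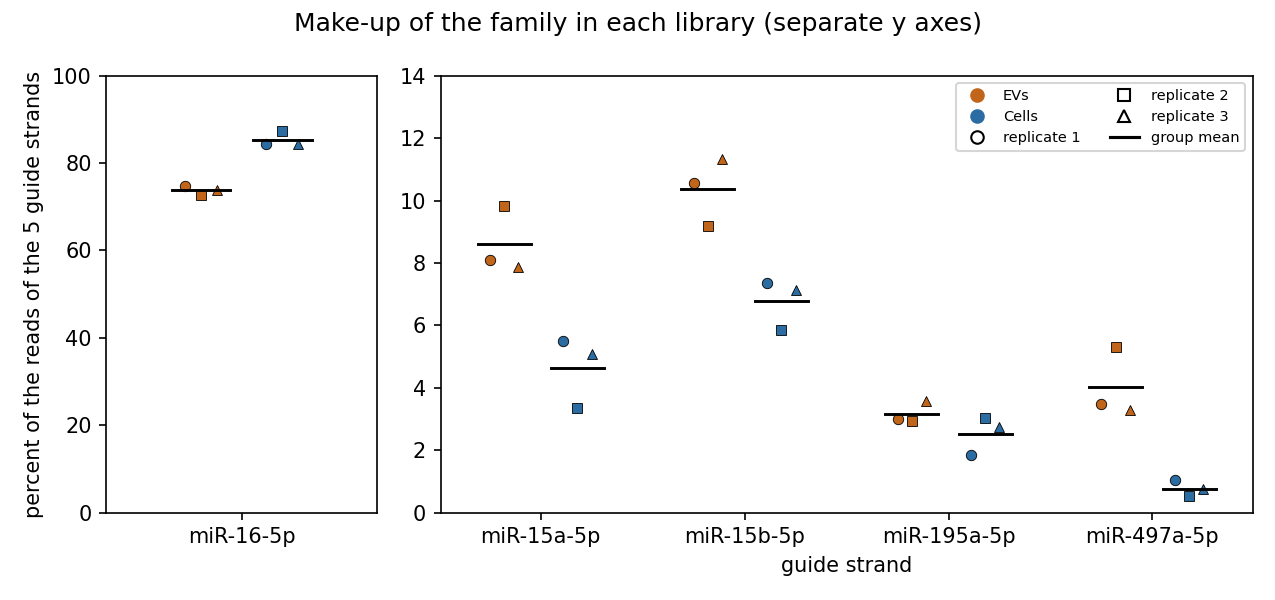
Percent of the reads of the 5 guide strands taken by each guide in each library, with miR-16-5p on its own axis at left, EVs in orange, Cells in blue and a bar at each group's mean. miR-16-5p takes 72.7% to 74.9% in EVs and 84.3% to 87.2% in Cells, and miR-497a-5p 3.29% to 5.32% and 0.526% to 1.03%.

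Ratios of 2 guides within a library do not depend on scaling between libraries either. Over the 10 pairs of guides, 7 had log2 ratios that did not overlap between the groups, as did 59.3% of all pairs of tested miRNAs. The count is near that share and is no result about the guides. All 4 ratios with miR-497a-5p were among the 7, and so were all 4 with miR-16-5p, the pair of these miRNAs being in both sets. How often all ratios of a single miRNA do so was not computed. The ratio of miR-195a-5p to miR-497a-5p, from the same cluster, had log2 values of -0.21, -0.85 and 0.12 in EVs and 0.80, 2.45 and 1.84 in Cells. miR-497a-5p thus had the more reads in EVs replicates 1 and 2 and miR-195a-5p in EVs replicate 3, while miR-195a-5p had the more in every cell library. The difference of the means, EVs minus Cells, was -2.01 on the log2 scale, and it was -2.46 without Cells replicate 1 and -1.63 without Cells replicate 2, the ends of its range when a library was left out.

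The reads of miR-16-5p cannot be assigned to either 15/16 cluster, so miR-15a-5p and miR-15b-5p were each set against all miR-16-5p reads and not against those of their neighbour. The log2 ratio of miR-15a-5p to miR-16-5p was -3.11 ± 0.19 in EVs and -4.22 ± 0.41 in Cells, a difference of 1.11. For miR-15b-5p to miR-16-5p it was -2.84 ± 0.14 and -3.65 ± 0.21, a difference of 0.82 (SD, n = 3 each). The paralogs miR-15a-5p and miR-15b-5p kept a more even ratio, at -0.38, 0.09 and -0.52 in EVs and -0.41, -0.80 and -0.49 in Cells, with overlap. The exact permutation p, two-sided, was 0.1 for each of the 7 pairs that did not overlap and 0.3 to 0.5 for the other 3, and after adjustment over the 10 pairs 0.143 at the least. Paired by replicate number, the exact sign-flip p was 0.25, the smallest possible, for the same 7 pairs and 0.5 to 0.75 for the other 3.

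**Figure D4:**
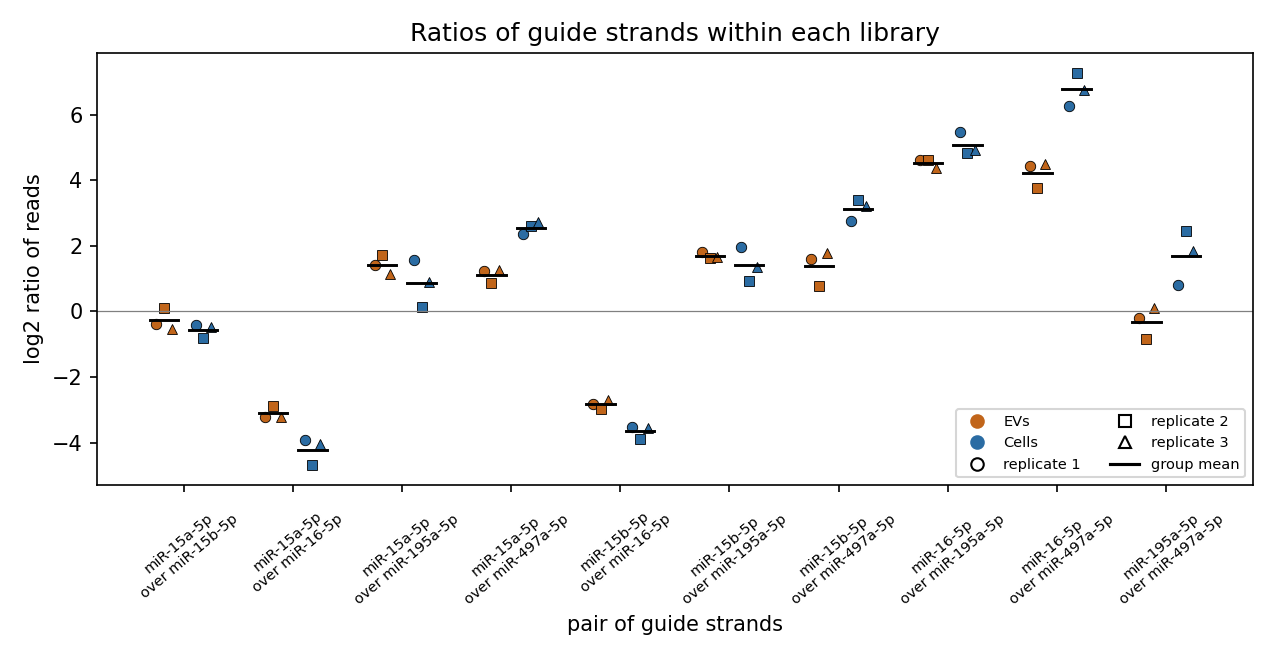
Log2 ratio of reads for each of the 10 pairs of guide strands, each library a symbol, EVs in orange and Cells in blue, with a bar at each group's mean. The ratio of miR-195a-5p to miR-497a-5p at the right lies between -0.85 and 0.12 in EVs and between 0.80 and 2.45 in Cells.

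For the comparison by cluster, the reads of all arms of a cluster were summed, leaving out miR-16-5p because both 15/16 clusters encode it. The 15a/16-1 sum (miR-15a-5p, miR-15a-3p and miR-16-1-3p) stood at 1137, 1131 and 978 CPM in EVs and at 442, 520 and 588 CPM in Cells. The 15b/16-2 sum (miR-15b-5p, miR-15b-3p and miR-16-2-3p) stood at 1661, 1144 and 1537 CPM in EVs and at 576, 859 and 855 CPM in Cells. The miR-497/miR-195 sum (both arms of miR-497a and of miR-195a) stood at 861, 848 and 727 CPM in EVs and at 173, 433 and 381 CPM in Cells. No cluster's sums overlapped between the groups, and the EV libraries had the higher values, as they did for 47.3% of all tested miRNAs.

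With the sums in the table, 28.3% of 332 tested rows were called higher. The log2 fold change was 0.61 for 15a/16-1 (SE 0.20, edgeR BH-adjusted p = 0.0284), 0.46 for 15b/16-2 (SE 0.21, adjusted p = 0.0803, 95% interval -0.0013 to 0.93) and 0.87 for miR-497/miR-195 (SE 0.28, adjusted p = 0.0235). The 15a/16-1 and miR-497/miR-195 sums were therefore called higher and the 15b/16-2 sum was not, but the difference between clusters was not tested. The miR-497/miR-195 sum combines unlike members: miR-497a-5p supplied 581 of its 1138 reads in EVs and 32 of its 159 reads in Cells. The call of 15a/16-1 ended when any library other than EVs replicate 3 was left out (0.42 to 0.67), and that of miR-497/miR-195 on leaving out EVs replicate 1 (0.79), the second EV library (0.67) or Cells replicate 3 (0.96). Both ended with upper-quartile scaling (0.48 and 0.72), and the 15b/16-2 sum was called with library size alone (0.93, edgeR BH-adjusted p = 0.00823).

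The passenger arms of the miR-16 copies, which tell these clusters apart, were rare. miR-16-1-3p stood at 102, 150 and 138 CPM in EVs and at 134, 94.6 and 84.0 CPM in Cells, with overlap (log2 fold change -0.16, SE 0.33, edgeR BH-adjusted p = 0.733). With library size alone it was 0.32, not called. miR-16-2-3p stood at 71.9, 79.7 and 88.5 CPM in EVs and at 19.2, 15.8 and 39.5 CPM in Cells, without overlap (1.14, SE 0.42, adjusted p = 0.0391). Its cell values rested on 3, 2 and 8 reads. It passed the filter on low counts only through the EV libraries, where it is high, and was no longer tested after thinning. Blocking on replicate number ended the call (1.16, edgeR BH-adjusted p = 0.0594), as did DESeq2 (1.10, 0.0834), upper-quartile scaling (1.03, 0.0713), dropping the filter on low counts (1.28, 0.061), and leaving out any library but Cells replicate 3 (0.91 to 1.17).

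The share of miR-16-2-3p among the reads of both arms, a measure chosen after its values were seen, was 41.3%, 34.7% and 39.1% in EVs. In Cells it was 12.5%, 14.3% and 32.0%, from 24, 14 and 25 reads. All EV libraries lay above all cell libraries (exact permutation p = 0.1, two-sided, the smallest possible). However, the 95% Wilson interval of Cells replicate 3, 17.2% to 51.6%, reached over all 3 EV values. The interval of Cells replicate 2, 4.01% to 39.9%, reached over the values of EVs replicates 2 and 3.

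The proportion of the arms was compared with limma on log2((5p + 0.5)/(3p + 0.5)) over 187 hairpins, of which 12.8% shifted towards 5p and 23.0% towards 3p in EVs. Of the family, miR-15a, miR-15b, miR-16, miR-195a, miR-322 and miR-503 were tested, and none was among them. miR-497a was not tested, since Cells replicate 2 had 8 reads over both of its arms. For miR-15b the 3p arm made up 16.4%, 15.6% and 20.8% of reads in EVs and 26.4%, 16.8% and 13.3% in Cells (log2 change of 5p over 3p 0.10, SE 0.46, limma BH-adjusted p = 0.881). This direction turned without Cells replicate 1 (-0.24). For miR-16, with both copies' 3p arms summed, the 3p share was 2.62% ± 0.708 in EVs and 1.89% ± 1.13 in Cells (SD, n = 3 each; log2 change -0.58, SE 0.52, limma BH-adjusted p = 0.426). miR-195a had 7.86% ± 1.86 and 4.93% ± 2.47 (log2 change -0.49, SE 0.51, adjusted p = 0.489), and miR-15a 2.95% ± 1.82 and 1.85% ± 3.21 (log2 change -0.91, SE 0.90, adjusted p = 0.464). The 3p arms of the latter hairpins had as few as 1 and 0 reads in a cell library, where this ratio moves with depth. The one call was that of miR-15a without Cells replicate 2 (log2 change -1.998, limma BH-adjusted p = 0.0356), where its 3p arm had 0 reads in both remaining cell libraries.

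Other entries related to the family by hairpin or seed, 10 in number, were read beside the members. Of these 5 passed the filter, with 2 called higher and 0 lower, where 28.6% and 28.9% of all tested miRNAs were. Both calls, those of miR-16-2-3p and miR-503-5p, were lost in most of the alternatives, and miR-16-2-3p was tested only through its EV values. miR-322-5p, which has the same seed and is the mouse counterpart of human miR-424, and miR-503-5p, which shares the first 6 of the 7 seed bases, lie 256 bases apart on the X chromosome.
miR-322-5p: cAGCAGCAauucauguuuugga
miR-503-5p: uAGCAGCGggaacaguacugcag
miR-322-5p stood at 942, 994 and 873 CPM in EVs and at 429, 583 and 623 CPM in Cells (log2 fold change 0.33, SE 0.21, edgeR BH-adjusted p = 0.2). miR-503-5p stood at 652, 618 and 595 CPM in EVs and at 205, 307 and 376 CPM in Cells (0.61, SE 0.22, adjusted p = 0.0373). Neither overlapped between the groups, and 47.3% of all tested miRNAs likewise stood higher in every EV library than in any cell library. For miR-503-5p, too, blocking on replicate number ended the call (0.62, edgeR BH-adjusted p = 0.0535), as did DESeq2 (0.55, 0.068), upper-quartile scaling (0.48, 0.119), thinning all libraries to 126910 reads (0.55, 0.107), and leaving out any library but Cells replicate 3 (0.45 to 0.65).

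The passenger arm miR-322-3p stood at 381 ± 58.4 CPM (EVs) and 205 ± 48.9 CPM (Cells), SD with n = 3 each (log2 fold change 0.42, edgeR BH-adjusted p = 0.122). With library size alone both arms of miR-322 were called higher, at 0.78 (5p, edgeR BH-adjusted p = 0.0125) and 0.89 (3p, 0.0119). The arms miR-15a-3p (43 reads in EVs and 3 in Cells), miR-503-3p (34 and 6) and miR-497a-3p (14 and 4) were too rare to be tested. In pooled reads the share of miR-15a-3p was 4.85 times as high in EVs (95% exact binomial interval 1.55 to 24.4), that of miR-503-3p 1.92 times (0.796 to 5.59) and that of miR-497a-3p 1.18 times (0.372 to 4.94), for counting error only. miR-497b, which is annotated on the strand opposite to miR-497a, had 5 reads in EVs and 0 in Cells. It overlaps 17 bases of miR-497a-3p and none of miR-497a-5p. The use of strand in counting is not given in the sources used here, and for reads of miR-497b it bears on the 3p arm.

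Some miRNAs of cell types other than oligodendrocytes rose with miR-497a-5p in the vesicle fraction. The erythroid markers (miR-451a, miR-144-3p, miR-144-5p and miR-486a-5p) summed to 3971 to 7905 CPM in the EV libraries against 212 to 256 CPM in the cell libraries, with 2 of 2 tested called higher and miR-144-5p at 0 in all cell libraries. The mural and mesenchymal markers (miR-143-3p, miR-145a-5p, miR-199a-3p and miR-214-3p) summed to 2473 to 4807 CPM in the EV libraries against 362 to 1037 CPM in the cell libraries, with 3 of 3 tested called higher. For the endothelial markers (miR-126a-3p and miR-126a-5p) the sums were 182 to 303 CPM and 63.0 to 93.9 CPM, with 1 of 2 called higher. The neuronal markers (miR-124-3p and miR-137-3p) summed to 21882 to 29942 CPM in the EV libraries against 6889 to 13805 CPM in the cell libraries, with 2 of 2 called higher, and the liver miRNA miR-122-5p lay at 4194 to 8316 CPM against 24.7 to 47.3 CPM. Of all tested miRNAs 28.6% were called higher and 28.9% lower. miR-451a, miR-145a-5p, miR-199a-3p, both arms of miR-126a and miR-122-5p passed the filter on low counts only through the EV libraries. The counts of tested markers called higher were thus partly set by the filter.

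Markers of striated muscle (miR-1a-3p, miR-133a-3p and miR-206-3p) had a lower sum in EVs, though miR-133a-3p overlapped between the groups and was not tested. They summed to 159 to 545 CPM in the EV libraries against 615 to 1184 CPM in the cell libraries, with 0 of 2 tested called higher and 2 lower. Of these, miR-1a-3p passed the filter only through the cell libraries. The myeloid markers (miR-155-5p, miR-142a-3p and miR-223-3p) summed to 201 to 462 CPM in the EV libraries against 449 to 1216 CPM in the cell libraries, with 2 of 3 called lower. Apart from miR-144-5p, no marker in these lists was at 0 in all cell libraries. The part of these cell types in the values of the family was not tested.

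The miRNAs outside the family whose pattern was most like that of each guide were found by the Euclidean distance between log2 CPM values centred on each miRNA's mean over the 6 libraries. For miR-497a-5p they were miR-301a-3p (distance 0.43, log2 fold change 1.94), miR-136-3p (0.57, 2.40) and miR-3085-3p (0.65, 1.83), each called higher. For miR-15a-5p they were miR-20a-5p (0.24, log2 fold change 0.90), miR-138-5p (0.39, 0.73) and miR-370-3p (0.44, 0.81), also called higher, with the last not called when EVs replicate 1, EVs replicate 2 or Cells replicate 3 was left out or after thinning. For miR-15b-5p they were miR-296-3p (0.37, log2 fold change 0.40), miR-542-3p (0.43, 0.29) and miR-361-5p (0.46, 0.61), none of them called. In alternatives, miR-361-5p was called with library size alone (1.06, edgeR BH-adjusted p = 0.0116), with no filter beyond a count above 0 (0.75, 0.0208) and without Cells replicate 2 (0.82, 0.0416), and miR-296-3p with library size alone (0.86, 0.00812).

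For miR-16-5p the nearest were miR-384-3p (distance 0.25, log2 fold change -0.29), miR-674-5p (0.45, -0.52) and miR-872-3p (0.47, -0.22), and for miR-195a-5p miR-30c-5p (0.47, 0.36), miR-129-2-3p (0.53, -0.19) and miR-335-5p (0.58, 0.53). None of these was called, though miR-335-5p was with library size alone (0.98, edgeR BH-adjusted p = 0.0297). Without Cells replicate 1, as with miR-16-5p itself, miR-384-3p (-0.54, edgeR BH-adjusted p = 0.0484) and miR-674-5p (-0.78, 0.0154) were called lower. Within the family the nearest pair was miR-15a-5p and miR-15b-5p (distance 0.65), and the farthest was miR-16-5p and miR-497a-5p (3.20). For 336 miRNAs in 6 libraries such distances mostly reflect the difference between the groups, and they are given as a description.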

How the data were processed

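Small RNA was read in 3 EV and 3 cell libraries. The authors deposited 1 table of counts per sample, whole reads per mature miRNA. The build was NCBIM37 (mm9), and the tools were featureCounts 1.4.6-p4, Bowtie 0.12.8, bcl2fastq 1.8.4 and cutadapt 1.7.1, per the submitters' processing notes. How reads with several matches, strand and PCR duplicates were handled is not given in the sources used here. miR-16-5p, with 2 gene copies, and near-identical members such as miR-16-5p and miR-195a-5p could therefore share or lose reads.

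Counts were tested with edgeR 4.0.16 under R 4.3.3 (two-sided quasi-likelihood test, glmQLFit and glmQLFTest; TMM, filterByExpr at a minimum count of 10, group as the only term) across all miRNAs, with Benjamini-Hochberg (BH) adjustment over the 336 kept. CPM is counts over the library total. Standard errors and 95% intervals were derived from the coefficient and the F statistic. Arm balance was tested with limma 3.58.1 for hairpins with at least 10 reads over both arms in every library. Exact permutation tests went over all 20 arrangements of the libraries. The edgeR and limma steps were tested on simulated data. There the arm ratio was unreliable where an arm was near 0 reads, and an alternative with at least 5 reads of each arm in every library was added. Other alternatives were library size alone, upper-quartile scaling (also added), DESeq2 1.42.0, other filters, thinning, the replicate block and leaving out each library.

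Replicates are numbered in the labels, which do not say whether they were separate cultures, so p-values measure only the spread between these libraries. Within groups, the chi-square over its degrees of freedom was 4.38 to 20.4 for each pair, so none was a library deposited again. On log2 CPM (prior count 2), deviations from the group mean correlated at 0.115, 0.106 and 0.256 between an EV and a cell library of the same number and at -0.148 to 0.021 otherwise. Libraries of the same number were thus somewhat more alike. With 3 libraries in each group the data cannot settle whether they are pairs, and the labels do not say. The main edgeR, limma and permutation tests are unpaired. Fits with the replicate number as a block and, added after the data were seen, exact sign-flip tests over the 3 pairs of same-numbered libraries are alternatives.

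Named were all members, the related entries with at least 10 reads, and the 3 miRNAs nearest in pattern to each guide. Related entries with fewer reads are named for completeness. The members, the lists and the tests were chosen with earlier results of these data known.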

Additional observations from a re-analysis of the deposited data

How the results depend on the processing

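The rise of miR-497a-5p was called in all 13 alternatives run, at 1.94 to 2.70 on the log2 scale, and the shares of the 5 guides kept their direction in all 8 of theirs. For guides whose shares did not overlap between the groups, leaving out a library could not turn the direction. The replicate block leaves the mean difference of a share as it is. The number of members called higher was 4 with library size alone, 1 with upper-quartile scaling and 1 to 2 when a library was left out (of all tested miRNAs 44.0%, 25.3% and 18.8% to 27.7% were). The number called lower was 0 to 1 when a library was left out. In those runs 88 to 98 of the 328 to 383 tested miRNAs were called lower. The 15a/16-1 sum was not called with upper-quartile scaling (0.48) and ranged from 0.42 to 0.70 when a library was left out. The miR-497/miR-195 sum was not called with upper-quartile scaling (0.72) and ranged from 0.60 to 1.05. With library size alone the 15b/16-2 sum was called (0.93) and the sum of the guides turned to 0.24, as did miR-16-5p (0.0316), miR-16-1-3p (0.32), miR-384-3p (0.15), miR-872-3p (0.24) and miR-129-2-3p (0.25). These turns follow from the scaling, which moved the median of all tested miRNAs from 0.06 to 0.54. miR-195a-5p turned with DESeq2 (-0.0225), upper-quartile scaling (-0.0885) and thinning (-0.0195), and ranged from -0.28 to 0.36 when a library was left out. miR-16-1-3p turned without a filter beyond a count above 0 (0.0034) and ranged from -0.41 to 0.15, and miR-129-2-3p from -0.58 to 0.20. The arm balance ranged from -0.24 to 0.37 for miR-15b and from -1.998 to -0.10 for miR-15a. The cause of the other changes was not tested. With the replicate block the log2 fold change was 2.20 for miR-497a-5p, 0.73 for miR-15a-5p and -0.37 for miR-16-5p, and it changed the calls of miR-16-2-3p and miR-503-5p but no other call among the members, related entries, cluster sums and arm ratios. Depth limits the values that rest on few cell reads, such as those of miR-497a-5p and most passenger arms, and a count of 0 allows up to 14.8 to 23.6 CPM in a cell library.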
